A study of Mus musculus with 56 samples.

Results

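Krt14, Krt5, Krt6a, Krt17 and Sfn are genes of the basal and activated epidermis that were followed through the reprogramming of mouse embryonic fibroblasts (MEFs) to pluripotent cells. Members were all rows whose name is one of these 5 symbols, in a table of sorted cells and in a table of day 10 cultures. Of the 14719 genes in either table they make up 5. Members were 4 of the 13451 genes of sorted cells and 5 of the 12935 genes at day 10. Krt5 was analysed in the day 10 table only.

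The study compared cells with normal, lowered and raised levels of the insulator protein CTCF, by RNA sequencing of total RNA. All reprogramming cells received Oct4, Sox2, Klf4 and Myc and, per the labels' protocols, were OG2 MEFs, which carry an Oct4-GFP reporter, grown in embryonic stem cell medium with vitamin C. In the sorted-cell table, cells with a control shRNA against luciferase or an shRNA against Ctcf were taken at day 0, as Thy1+, SSEA1+ and SSEA1-Thy1- (double-negative) cells at days 3, 6 and 9, and as GFP+ cells at day 12, with 2 libraries for each of the 22 groups. The day 10 table holds unsorted cultures with an OSKM control, with added CTCF overexpression, or with CTCF overexpression and an shRNA against the chromatin remodeller Smarca5. The protocols describe retroviral delivery of the factors and also a doxycycline-inducible polycistronic lentivirus; the labels tie neither to a single library. The virus carrying the Ctcf shRNA was concentrated.

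Keratins pair a type I protein with a type II protein into the intermediate filaments of epithelial cells. In skin, the type I keratin Krt14 and the type II keratin Krt5 form the filaments of the dividing basal layer, which depends on the transcription factor Trp63, while Krt6a and its type I partner Krt17 are switched on in hair follicles and in wounded or activated epidermis. Sfn encodes stratifin (14-3-3 sigma), an adaptor protein of stratified epithelia and a target of p53 that restrains the cell cycle.

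In GRCm38 the type I genes lie on chromosome 11, Krt14 at 100203162-100207548 and Krt17 at 100256217-100261029. The type II genes lie on chromosome 15, Krt5 at 101707070-101712898 and Krt6a at 101689910-101694307. Sfn lies on chromosome 4 at 133600556-133602168, and all 5 are on the minus strand. Krt6a has a close copy, Krt6b (chromosome 15, 101676023-101680287), which is no member. The coding sequences of Krt6a and Krt6b share an identical run of 280 bases, at coding positions 34 to 313 of both, which is printed because reads from it cannot be assigned to either gene (reference transcripts, 5′ to 3′, no capitals used).
Krt6a and Krt6b shared coding run: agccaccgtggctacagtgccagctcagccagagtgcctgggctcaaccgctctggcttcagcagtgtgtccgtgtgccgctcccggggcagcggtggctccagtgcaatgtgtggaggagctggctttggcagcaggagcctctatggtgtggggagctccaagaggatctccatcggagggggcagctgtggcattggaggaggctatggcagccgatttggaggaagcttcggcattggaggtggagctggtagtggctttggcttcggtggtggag
Of the 50-base words in the Krt6a transcripts, 40.2% also occur in Krt6b and 45.7% in some other gene. The share found in any other gene is 13.9% for Krt14, 8.52% for Krt5, 3.99% for Krt17 and 15.0% for Sfn, so that the Krt6a level is the least certain of the 5.

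Promoter windows of 250 bases before the RefSeq start (GRCm38.p6) matched an annotated gene start for 2 members and are printed for the basal keratin Krt5 (chr15:101712906-101713155, minus strand) and for Sfn (chr4:133602169-133602418, minus strand). Capitals mark a match to a single decamer of the p53 family element at bases -95 to -86 of the Krt5 window; the full element that Trp63 and p53 bind is a pair of such decamers, which was not searched.
Krt5 promoter: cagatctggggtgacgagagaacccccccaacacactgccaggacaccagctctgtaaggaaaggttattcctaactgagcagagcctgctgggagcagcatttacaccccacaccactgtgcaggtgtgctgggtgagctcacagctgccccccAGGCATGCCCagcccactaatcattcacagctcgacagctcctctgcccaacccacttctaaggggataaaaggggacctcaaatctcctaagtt
Sfn promoter: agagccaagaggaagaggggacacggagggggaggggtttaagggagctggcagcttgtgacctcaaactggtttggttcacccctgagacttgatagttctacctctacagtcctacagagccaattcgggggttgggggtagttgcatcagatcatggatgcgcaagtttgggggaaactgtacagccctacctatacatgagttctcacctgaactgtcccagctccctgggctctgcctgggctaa
The motifs searched on both strands were the single p53 family decamer, the TATA box TATAAA, the AP-1 motif TGANTCA, the AP-2 motif GCCNNNGGC, the Klf4 motif GGGNGTGG and the CTCF core motif. The decamer, which was matched on both strands at the same bases, was the only one found in the Krt5 window, and none of the 6 occurred in the Sfn window. Of 32817 promoter windows of this length, 7.12% hold the p53 family decamer, 12.4% the TATA box, 6.75% AP-1, 13.7% AP-2, 15.9% Klf4 and 0.509% the CTCF core. A match is a description of letters and no evidence of binding.

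Expression is given as a score, a tag count that the authors normalised and rounded, and it can be compared between libraries of 1 table only. Library totals ran from 31777102 to 31798964 in the sorted-cell table and from 19465402 to 19479768 in the day 10 table, so that the totals no longer carry the sequencing depth. Ctcf itself was lower with Ctcf shRNA in 11 of 11 sorted populations, with control means from 810 to 2411 and Ctcf shRNA means from 403.5 to 851.5. The summed score of 8 fibroblast markers was highest in day 9 Thy1+ cells (362360 in control cells) and that of 7 pluripotency markers in day 12 GFP+ cells (36412). Of 9 basal keratinocyte markers 6 have a row in the sorted-cell table. Krt5, Trp63 and Krt15, which define the basal cell, have none, and neither do the 5 suprabasal markers Krt1, Krt10, Ivl, Lor and Flg. The level of these genes in the sorted cells is unknown. The 4 genes are therefore described by name, and no keratinocyte identity is assigned to any library.

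In control cells all 4 genes were highest in day 9 SSEA1+ cells, SSEA1 being a marker that appears on the way to pluripotency. Krt6a and Krt17 were lowest in day 0 fibroblasts. At that peak the mean score per kb of transcript was 747 for Sfn, 337 for Krt17, 110 for Krt6a and 45.6 for Krt14. A fold change is a difference of log2(score + 1) with its standard error (SE) from limma. A gene is called at a Benjamini-Hochberg adjusted p under 0.05 over all genes of the table. These p-values measure only the spread between libraries, which may be technical, because nothing in the labels tells if the paired libraries are from separate cultures. Against day 0, 35 of 40 pairs of member and population passed, where 66.5% of all pairs of gene and population did. The share of all genes called higher than day 0 was 22.3%, 29.8% and 39.7% in day 3 Thy1+, double-negative and SSEA1+ cells, 28.9%, 37.2% and 42% in their day 6 counterparts, 30.3%, 33.6% and 36.8% in those of day 9, and 40.1% in day 12 GFP+ cells. The counts of members are read against these shares. A change in RNA per cell and a change in the number of expressing cells cannot be told apart in these bulk libraries.

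Krt14, the type I keratin of basal cells, scored 10 and 14 in day 0 control libraries. At day 3 it stood at 60 and 46 in Thy1+ cells, at 11 and 16 in double-negative cells and at 3 and 7 in SSEA1+ cells. The early high level thus lay in the cells that had kept the fibroblast marker. At day 6 the scores were 16 and 7 in Thy1+, 3 and 2 in double-negative and 5 and 6 in SSEA1+ cells. At day 9 they were 16 and 11 in Thy1+, 48 and 40 in double-negative and 80 and 75 in SSEA1+ cells, and in day 12 GFP+ cells they were 26 and 20. The order of the populations had turned over between day 3 and day 9. In descending order of the means, day 9 SSEA1+ (77.5) was followed by day 3 Thy1+ (53) and day 9 double-negative cells (44), whose libraries overlapped each other. The 4 groups from 13.5 down to 11.5 also overlapped their neighbours, as did the 3 groups from 5.5 to 2.5.

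Against day 0, Krt14 rose in day 3 Thy1+ (log2 fold change 2.06, SE 0.33), day 9 double-negative (1.80), day 9 SSEA1+ (2.61) and day 12 GFP+ cells (0.89). It fell in day 3 SSEA1+ (-1.18), day 6 double-negative (-1.89) and day 6 SSEA1+ cells (-0.99), where 32.5%, 32.8% and 35% of all genes were called lower. In day 6 and day 9 Thy1+ cells Krt14 was called lower only after quantile normalisation (-0.79, limma adjusted p = 0.0220, and -0.91, 0.00845). Several calls of the reported fit, made at low scores, ended when 1 library was left out. The day 3 SSEA1+ call ended without replicate 1 of that group (limma adjusted p = 0.104). The day 6 SSEA1+ call ended without replicate 2 of day 0 (0.0885) or replicate 1 of its own group (0.0548), and the day 12 call without replicate 1 of day 0 (0.132), without its own replicate 1 (0.112) or after quantile normalisation of the genes (0.291).

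Krt6a, the type II keratin of activated epidermis, scored 3 and 0 at day 0. Its control scores were 57 and 56, 24 and 24, and 18 and 13 in day 3 Thy1+, double-negative and SSEA1+ cells. They were 18 and 18, 11 and 11, and 50 and 36 in the same order at day 6. The later libraries held the high values: 36 and 29 in Thy1+, 106 and 130 in double-negative and 272 and 251 in SSEA1+ cells at day 9, and 120 and 135 in GFP+ cells at day 12. No later library overlapped day 0. Krt6a rose in 10 of 10 populations against day 0, by 2.58 in day 6 double-negative cells to 7.04 in day 9 SSEA1+ cells (SE 0.33). Day 12 GFP+ and day 9 double-negative cells, next in the order after day 9 SSEA1+ cells, overlapped.

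Krt17, the type I partner of Krt6a, scored 2 and 4 at day 0. In Thy1+ control cells it stood at 14 and 11 (day 3), 24 and 31 (day 6) and 60 and 52 (day 9). In SSEA1+ cells it stood at 11 and 18, 222 and 216, and 536 and 508 on the same days. Both series went up, the SSEA1+ series much further. Double-negative cells gave 10 and 9, 21 and 22, and 239 and 236, and day 12 GFP+ cells 276 and 300. Krt17 rose in 10 of 10 populations against day 0, by 1.44 (day 3 double-negative) to 7.08 (day 9 SSEA1+; SE 0.27). After quantile normalisation the calls in day 3 Thy1+ and double-negative cells were lost (log2 fold changes 0.38 and 0.21). Only the day 3 SSEA1+ and Thy1+ cells, at ranks 8 and 9, overlapped among neighbours in the order.

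Sfn, the 14-3-3 adaptor, was already expressed in day 0 fibroblasts at 182 and 172. At day 3 it stood at 1041 and 1172 in Thy1+, 652 and 657 in double-negative and 244 and 330 in SSEA1+ cells. At day 6 it stood at 178 and 170, 106 and 107, and 456 and 462 in the same order. Thy1+ cells were thus the highest of the 3 populations at day 3, and SSEA1+ cells at day 6. At day 9 the scores were 201 and 156, 554 and 515, and 1201 and 1210, and day 12 GFP+ cells gave 558 and 528. Against day 0 Sfn rose in 7 of 10 populations, most in day 9 SSEA1+ (2.76, SE 0.15) and day 3 Thy1+ cells (2.64), and fell in day 6 double-negative cells (-0.73). In day 6 and day 9 Thy1+ cells it was back at the day 0 level (-0.02 and 0.00), and these groups overlapped day 0 in the order.

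**Figure D1:**
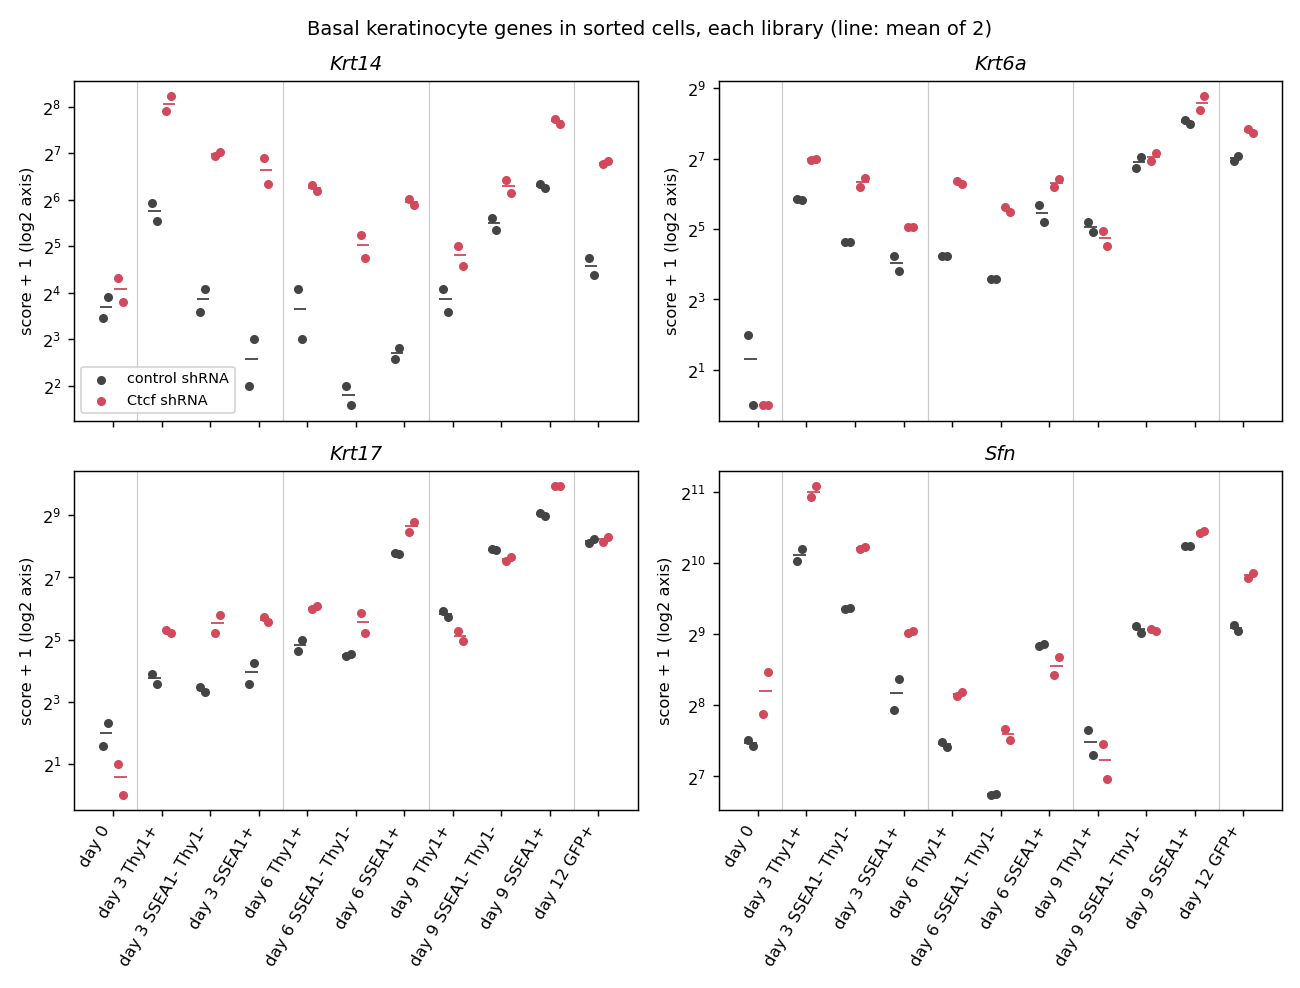
Scores of Krt14, Krt6a, Krt17 and Sfn in each sorted library (vertical axis: score + 1 on a log2 axis; horizontal axis: population; dark points control shRNA, red points Ctcf shRNA, short lines the mean of 2 libraries). All 4 control profiles peak in day 9 SSEA1+ cells, and the red Krt14 points lie above the dark ones in 10 of 11 populations.

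Compared on the same day, SSEA1+ and Thy1+ control cells differed in 11 of 12 pairs of member and day, against 69.7% of all pairs. At day 3 SSEA1+ cells were lower in Krt14 (log2 fold change -3.24, SE 0.33), Krt6a (-1.82) and Sfn (-1.96), and Krt17 did not pass (0.17); 28.8% of all genes were lower there. At day 9 all 4 were higher in SSEA1+ cells: Krt14 by 2.46, Krt6a by 2.98, Krt17 by 3.20 and Sfn by 2.76, as were 38.8% of all genes. At day 6 the 4 genes were split, with Krt6a (1.19), Krt17 (2.96) and Sfn (1.39) higher in SSEA1+ cells and Krt14 lower (-0.85), beside 42.4% of all genes higher and 33.8% lower. That Krt14 call ended without replicate 1 of Thy1+ (limma adjusted p = 0.462), without replicate 1 of SSEA1+ (0.106), in a fit on the libraries of day 6 only (0.0833) and after quantile normalisation (0.888).

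Double-negative control cells differed from Thy1+ or SSEA1+ cells of the same day in 18 of 24 pairs (43.3% of all pairs). At day 9 they lay between the other populations for each member. They were above Thy1+ cells by 1.65 (Krt14), 1.83 (Krt6a), 2.07 (Krt17) and 1.59 (Sfn), as were 30.1% of all genes. Their log2 fold changes against SSEA1+ cells were -0.81, -1.15, -1.13 and -1.17, with 11.3% of all genes called lower. The Krt14 difference from SSEA1+ cells did not pass (limma adjusted p = 0.0679), and the Krt6a one ended without replicate 1 of the double-negative (0.0989) or of the SSEA1+ cells (0.0724). The Krt14 difference from SSEA1+ cells at day 6 (-0.90, with 19.8% of all genes lower) ended without replicate 2 of the double-negative cells (limma adjusted p = 0.193), without replicate 1 (0.0562) or 2 (0.143) of the SSEA1+ cells, with a pseudocount of 8 (0.199) or in a fit on day 6 only (0.107), and at day 3 (1.34, with 20.9% of all genes higher) without replicate 1 of the SSEA1+ cells (0.0779) or after quantile normalisation (0.196). Between successive days within a population, 24 of 28 pairs passed (43.9% of all pairs). From day 6 to day 9, Krt14, Krt6a, Krt17 and Sfn rose by 3.69, 3.30, 3.41 and 2.32 in double-negative cells and by 3.60, 2.59, 1.25 and 1.39 in SSEA1+ cells, where 16.3% and 22.5% of all genes were called higher. From day 9 SSEA1+ to day 12 GFP+ cells all 4 fell, with log2 fold changes of -1.72 (Krt14), -1.03 (Krt6a), -0.86 (Krt17) and -1.15 (Sfn), as did 33.6% of all genes. The Krt6a call of this last step ended without replicate 1 of GFP+ (0.0610) or of SSEA1+ cells (0.0539), and the Krt17 call without replicate 1 of GFP+ cells (0.0536).

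Krt14 was called higher with Ctcf shRNA in every population from day 3 on except day 9 double-negative cells. With Ctcf shRNA, Krt14 scored 238 and 298 in day 3 Thy1+, 122 and 130 in double-negative and 118 and 80 in SSEA1+ cells. It scored 79 and 72, 37 and 26, and 64 and 58 in the same order at day 6. Every one of these libraries lay above both control libraries of its population. The mean scores were 5.06-fold (Thy1+), 9.33-fold (double-negative) and 19.8-fold (SSEA1+) the control means at day 3, and 6.57-fold, 12.6-fold and 11.1-fold at day 6. The log2 fold changes were 2.32, 3.15 and 4.12 at day 3 and 2.71, 3.21 and 3.26 at day 6 (SE 0.33), and all 6 passed with limma adjusted p from 6.29e-05 to 4.58e-09. The low control scores, of 16 or less in 5 of these 6 populations, leave the ratios imprecise.

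The Krt14 effect was smaller at day 9 and absent from the calls at day 0. With Ctcf shRNA the day 9 scores were 31 and 23 in Thy1+, 85 and 70 in double-negative and 212 and 198 in SSEA1+ cells. Day 12 GFP+ cells gave 108 and 113, against 26 and 20 in control cells. The log2 fold changes were 0.96 in day 9 Thy1+ (limma adjusted p = 0.0386), 0.80 in double-negative (0.0674, not called), 1.39 in SSEA1+ (0.00395) and 2.23 in day 12 GFP+ cells (3.14e-06). The double-negative value was called with a pseudocount of 8 (limma adjusted p = 0.0163), after quantile normalisation (0.0145) and in a fit on day 9 only (0.0332). The Thy1+ call ended without replicate 1 of the Ctcf shRNA group (0.252) or replicate 2 of the control group (0.275). At day 0 the Ctcf shRNA libraries stood at 19 and 13, overlapping the control (log2 fold change 0.38, limma adjusted p = 0.523). Krt14 was thus called higher in 9 of 11 populations, which 0.327% of all genes reached, and its mean effect over the 11 populations was 2.23 (SE 0.10, limma adjusted p = 4.61e-16).

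Krt6a with Ctcf shRNA scored 124 and 126, 72 and 86, and 32 and 32 in day 3 Thy1+, double-negative and SSEA1+ cells. It scored 81 and 77, 48 and 44, and 72 and 84 in the same order at day 6. All 6 pairs lay above their controls, and 3 passed: day 3 double-negative (1.67, SE 0.33, limma adjusted p = 0.00247), day 6 Thy1+ (2.07, 9.85e-05) and day 6 double-negative cells (1.97, 3.43e-05). The other 3 stood at 1.13 (adjusted p = 0.0546 in limma, and 0.0481 with a replicate block), 1.02 (0.0688) and 0.86 (0.0673). These 3 were called with a pseudocount of 8 (limma adjusted p = 0.000251, 0.00346 and 0.00144) and in fits by day (0.0244, 0.0227 and 0.0249). At day 9 the scores were 30 and 22, 120 and 141, and 333 and 434, with log2 fold changes of -0.32, 0.15 and 0.54. None of these passed, and the Thy1+ and double-negative libraries overlapped their controls; the SSEA1+ value was called with a pseudocount of 8 (limma adjusted p = 0.0306). Day 12 GFP+ cells gave 230 and 209 (0.78, limma adjusted p = 0.0557, and 0.000557 with a pseudocount of 8 or 0.00323 in a fit on day 12 only). Both Ctcf shRNA libraries of day 0 are listed at 0, with a log2 fold change of -1.0 and no call (limma adjusted p = 0.0699). After quantile normalisation this day 0 value was -1.48 and called lower (limma adjusted p = 0.0378). Without replicate 2 of the control it was -2.0. These ratios rest on control scores of 3 and 0. The mean effect was 0.81 (SE 0.10, limma adjusted p = 1.96e-07).

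Krt17 with Ctcf shRNA scored 39 and 36, 36 and 54, and 52 and 46 in day 3 Thy1+, double-negative and SSEA1+ cells. It scored 62 and 66, 57 and 36, and 356 and 444 at day 6. All 6 pairs lay above their controls and passed, with log2 fold changes of 1.52, 2.10 and 1.72 at day 3 and 1.20, 1.04 and 0.86 at day 6 (SE 0.27). The day 6 calls were fragile. The Thy1+ call ended without replicate 1 of the control (limma adjusted p = 0.0627), the double-negative call without replicate 1 of the Ctcf shRNA group (0.0907), and the SSEA1+ call without replicate 2 of the Ctcf shRNA group (0.191), replicate 1 (0.0899) or 2 (0.104) of the control, or after quantile normalisation (0.0613).

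At day 9 the Krt17 effect depended on the population. SSEA1+ cells went from 536 and 508 to 979 and 976 (0.90, limma adjusted p = 0.0251). Thy1+ cells went from 60 and 52 to 38 and 30 (-0.71, 0.068), and double-negative cells from 239 and 236 to 185 and 202 (-0.30), both without a call although no libraries overlapped. The lower Thy1+ value was called with a pseudocount of 8 (limma adjusted p = 0.0134) and in a fit on day 9 only (0.00509). The SSEA1+ call ended when any 1 of its 4 libraries was left out (limma adjusted p from 0.0935 to 0.124) and after quantile normalisation (0.0584). Day 12 GFP+ cells scored 284 and 316 against 276 and 300 (0.06). At day 0 the gene was called lower, from 2 and 4 to 1 and 0 (-1.45, 0.00212; 3.75% of all genes lower), at scores too low to give weight to the ratio; this call ended without replicate 2 of the Ctcf shRNA group (0.105), without replicate 2 of the control (0.0574) or with a pseudocount of 8 (0.215). The mean Krt17 effect was 0.63 (SE 0.08, limma adjusted p = 3.64e-07).

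Sfn with Ctcf shRNA scored 1941 and 2157, 1172 and 1194, and 516 and 524 in day 3 Thy1+, double-negative and SSEA1+ cells, all above their controls. The log2 fold changes of 0.89, 0.85 and 0.87 (SE 0.15) in the 3 populations lay within 1 SE of each other, and all 3 passed. At day 6 it scored 278 and 290 in Thy1+ (0.70) and 202 and 182 in double-negative cells (0.84), which both passed. In day 6 SSEA1+ cells it scored 344 and 408, below both control libraries, without a call (-0.29, limma adjusted p = 0.177). The day 9 scores were 174 and 124, 538 and 524, and 1370 and 1394, with log2 fold changes of -0.27, -0.01 and 0.20 and no call; without replicate 1 of the Ctcf shRNA group the Thy1+ value was -0.51 and called lower (limma adjusted p = 0.0473). Day 12 GFP+ cells rose from 558 and 528 to 886 and 926 (0.74), and day 0 cells from 182 and 172 to 234 and 352 (0.69, limma adjusted p = 0.00611). The day 0 call ended without replicate 2 of the Ctcf shRNA group (0.269), without replicate 2 of the control (0.0563) and in a fit on the day 0 libraries only (0.575). The mean Sfn effect was 0.47 (SE 0.05, limma adjusted p = 1.97e-09).

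In all, 26 of 44 pairs of member and population were called higher with Ctcf shRNA and 1 was called lower. The same shares over all genes were 9.09% higher and 10.2% lower. By population, the share of all genes called higher was 2.93% at day 0, 1.46%, 2.34% and 3.56% in day 3 Thy1+, double-negative and SSEA1+ cells, 6.83%, 20.2% and 11.2% in their day 6 counterparts, 7.51%, 14.6% and 4.8% in those of day 9, and 24.6% in day 12 GFP+ cells. At day 3 each of the 3 populations thus had 3 or 4 of 4 members called higher over a background of few genes. Krt17 and Sfn were each called higher in 7 populations, and 2.32% of all genes were called higher in at least 6. In 33 of the 44 pairs both Ctcf shRNA libraries lay above both control libraries, against 28.2% of all pairs, and in 4 both lay below. The mean effect was called higher for 4 of 4 members, against 26.2% of all genes. Beside these values, the summed fibroblast markers went from 58549 in control to 117774 with Ctcf shRNA in day 6 double-negative cells, from 50184 to 22584 in day 9 SSEA1+ cells and from 19379 to 57870 in day 12 GFP+ cells. They went from 276918 to 204426 in day 6 Thy1+ cells, where all 4 members were called higher and 5 of 8 fibroblast markers lower, and from 7763 to 10675 in day 6 SSEA1+ cells. In day 9 Thy1+ cells the fibroblast sums were 362360 and 356754, while the simple epithelial markers went from 3993 to 1359 and the pluripotency markers from 510 to 165.5. In day 9 double-negative cells the fibroblast markers went from 128398 to 151447 and the pluripotency markers from 2107 to 1386. In the day 6 double-negative and day 12 comparisons 8 of 8 fibroblast markers were called higher, and in day 9 SSEA1+ cells 8 of 8 lower. Of all genes, 7.56% were called lower in day 6 Thy1+ cells and 9.04% in day 9 SSEA1+ cells. At day 12 the summed pluripotency markers stood at 36412 in control and 21090 with Ctcf shRNA, and the simple epithelial markers at 15883 and 25647. In the 3 day 3 populations, where all Krt14, Krt17 and Sfn effects passed, 0 to 2 of the 8 fibroblast markers were called in either direction. Of all genes, 4.02% (Thy1+), 4.88% (double-negative) and 6.78% (SSEA1+) were called there in either direction. At day 3 the summed fibroblast scores were 147030 in control and 131228 with Ctcf shRNA in Thy1+ cells, 90767 and 87975 in double-negative cells, and 23547 and 23187 in SSEA1+ cells. These fibroblast sums of the Ctcf shRNA and control libraries overlapped in each day 3 population. In day 3 SSEA1+ cells the simple epithelial sums were 885 and 958 in control and 1376 and 1276 with Ctcf shRNA. The pluripotency sums there were 84 and 77, and 60 and 60. In double-negative cells the simple epithelial sums were 692 and 719, and 803 and 786, and the pluripotency sums 21 and 15, and 7 and 14. Those of Thy1+ cells overlapped for both marker sets. The summed macrophage markers of day 3 Thy1+ cells were 1359 and 1494 in control and 475 and 745 with Ctcf shRNA. The part of all these markers in the member effects was not tested.

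**Figure D2:**
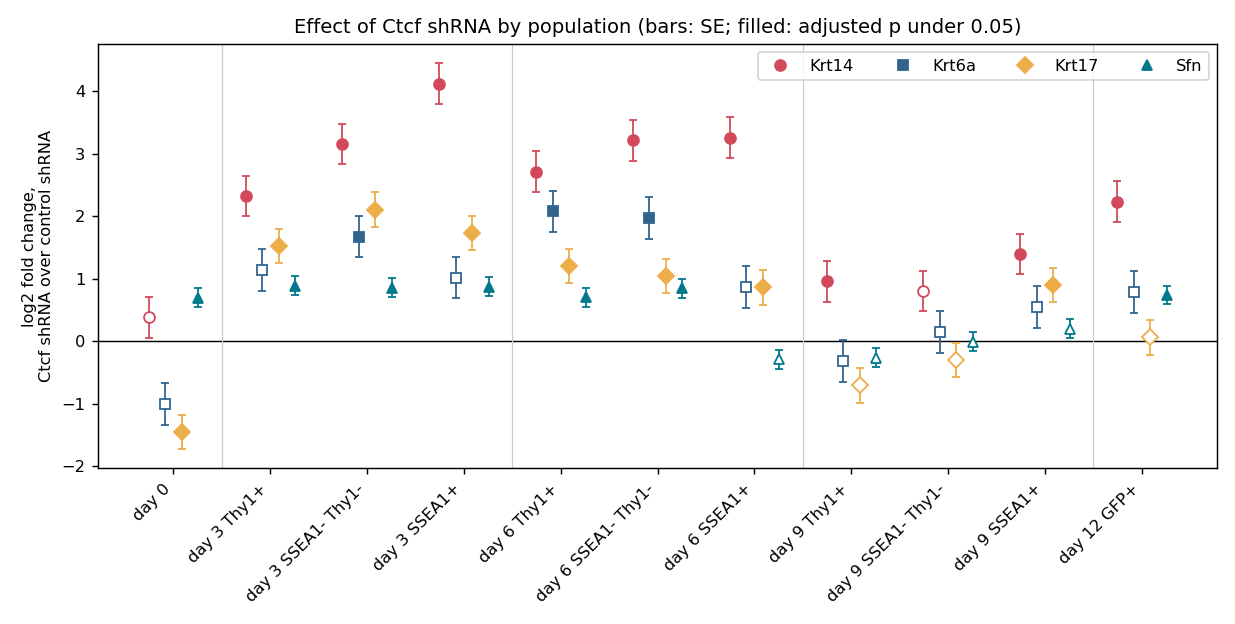
Log2 fold change of Krt14, Krt6a, Krt17 and Sfn with Ctcf shRNA over control shRNA in each sorted population (points: limma estimates, bars: SE, filled symbols: adjusted p under 0.05; 2 libraries per group). Krt14 lies highest in 10 of the 11 populations, reaching 4.12 in day 3 SSEA1+ cells, and only Krt14 and Krt17 are filled in day 9 populations.

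The size of the effect differed between populations for each gene. A limma F test of differences between the 11 effects passed for Krt14 (adjusted p = 9.08e-07), Krt17 (1.82e-07), Sfn (1.49e-05) and Krt6a (7.27e-05), as it did for 56% of all genes. The effect at day 9 was lower than at day 3 for Krt14 in double-negative (-2.35, SE 0.46, limma adjusted p = 0.00203) and SSEA1+ cells (-2.73, 0.00037), where 3.18% and 4.65% of all genes were called lower. For Krt17 it was lower in Thy1+ (-2.23, 0.000382) and double-negative cells (-2.40, 0.000284), for Sfn in Thy1+ (-1.16, 0.000756) and double-negative cells (-0.86, 0.0121) and for Krt6a in double-negative cells (-1.53, 0.046). In Thy1+ cells 5.22% of all genes were called lower. The remaining day 9 minus day 3 differences had the same sign without a call, the largest being -1.45 for Krt6a and -1.36 for Krt14 in Thy1+ cells.

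Between populations of 1 day, the Krt17 effect was larger in SSEA1+ than in Thy1+ cells at day 9 (1.61, SE 0.39, limma adjusted p = 0.00361; 10.3% of all genes called higher). The Sfn effect was smaller in SSEA1+ than in Thy1+ cells at day 6 (-1.0, SE 0.21, limma adjusted p = 0.00504; 2.47% called lower). The rise of the Krt14 effect from Thy1+ to SSEA1+ cells at day 3 (1.80, SE 0.46) did not pass (limma adjusted p = 0.111), with 0.164% of all genes called higher.

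Krt6b, the copy of Krt6a, had a similar profile over the populations, and its Ctcf shRNA effects from day 6 on had other signs in part. Group means of log2(score + 1) of Krt6a and Krt6b correlated at r = 0.857 over the 11 control populations and 0.894 over those with Ctcf shRNA (n = 11 each, as a description). Krt6b mean scores in control cells were 0.5 at day 0 and 946.5 in day 9 double-negative cells. With Ctcf shRNA Krt6b was called higher in the 3 day 3 populations (0.86, 1.09 and 0.87) and lower in day 6 double-negative (-0.83), day 9 Thy1+ (-2.13), day 9 double-negative (-2.30) and day 12 GFP+ cells (-1.41), with a mean effect of -0.42 (SE 0.06, limma adjusted p = 8.08e-07). With CTCF overexpression at day 10 Krt6b stood at -1.60, beside -1.18 for Krt6a, neither called. In day 9 double-negative cells Krt6b went from a mean of 946.5 to 191 while Krt6a stood at 118.0 and 130.5. Since the genes share much sequence, how reads were divided between them bears on both values.

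Other epidermal genes were read from lists, chosen with earlier results of these data known, and are described by counts only. Over all 13451 genes the mean Ctcf shRNA effect was called higher for 26.2% and lower for 25.8%, with a median of -0.00. Of 17 other basal keratinocyte genes 7 were called higher and 4 lower (median 0.10). The most abundant were Dst, a hemidesmosome linker (0.03, not called), the hemidesmosome integrin subunits Itgb4 (0.28) and Itga6 (0.10), and the desmosome-associated p53 family target Perp (0.32). Of 10 suprabasal and cornified envelope genes 5 were called higher and 0 lower (median 0.64), with S100a7a at 1.11, the transglutaminases Tgm1 (0.07) and Tgm3 (0.06) without a call, and the protease gene Tmprss11f at 0.88 without a call.

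Of 10 desmosome genes 5 were called higher and 1 lower (median 0.06), with desmoplakin Dsp at 0.45, plakoglobin Jup at 0.45, Dsc2 at 0.08 and Pkp2 at 0.06. Simple epithelial genes were split, 5 higher and 2 lower of 14 (median 0.07): the simple keratin Krt8 (-0.15) and the adhesion gene Epcam (-0.22) fell, while Krt18 (0.08) and E-cadherin Cdh1 (-0.03) were not called. Of 12 p53 target genes 7 were called higher and 1 lower (median 0.11). The most abundant were Ccng1 (0.17), Trp53inp1 (0.01, not called), the CDK inhibitor gene Cdkn1a (0.17) and Mdm2 (0.17). Of the 7 14-3-3 genes, Sfn included, 3 were called higher and 1 lower (median 0.02). The most abundant, Ywhae (-0.02), Ywhaq (0.02) and Ywhaz (0.02), were not called, and Ywhag stood at 0.14.

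All 5 genes were measured in the day 10 cultures, on a scale of their own. Control score per kb was 9159 for Krt17, 3828 for Sfn, 2453 for Krt6a, 1640 for Krt14 and 262 for Krt5. The control columns differed by a median of 0.327 times the spread of pure counting, against 1.6 to 12.6 in the other replicate pairs. They were averaged and counted as 1 sample, which leaves 2 residual degrees of freedom. Ctcf scored 1262 and 1234 in control, 5110 and 6132 with CTCF overexpression and 7225 and 5205 with Smarca5 shRNA added. Smarca5 scored 12278 and 11554, 13818 and 13283, and 6387 and 6650.

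Krt14 scored 2792 and 2778 in control and 1316 and 1594 with CTCF overexpression, and its basal partner Krt5 584 and 568 against 315 and 310. Krt6a scored 5818 and 5818 against 1998 and 3292, and its partner Krt17 14206 and 14206 against 7226 and 8332. Sfn scored 6216 and 6133 against 4628 and 4835. Both overexpression libraries lay below both control columns for 5 of 5 members, as they did for 26.2% of all genes. The log2 fold changes were -0.94 for Krt14 (SE 0.17), -0.88 for Krt5 (SE 0.18), -1.18 for Krt6a (SE 0.32), -0.87 for Krt17 (SE 0.14) and -0.38 for Sfn (SE 0.12).

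No member was called lower in this comparison with limma, and 0% of all genes were (0.0618% in either direction), with adjusted p from 0.415 for Krt17 to 0.767 for Sfn. Ctcf itself was not called (2.16, limma adjusted p = 0.217). At an unadjusted limma p under 0.05, 5 of 5 members were lower, and 3.26% of all genes were. With all 6 columns taken as separate samples, Krt14 (limma adjusted p = 0.046) and Krt17 (0.0343) were called lower. That fit counts the 2 control columns as replicates although they differed by less than pure counting, so its calls carry little weight. The share of all genes called in it was not counted. Beside these values, the summed simple epithelial markers stood at 35061 in control and 29110 with overexpression, the fibroblast markers at 36261 and 36919, and the pluripotency markers at 6988 and 13572. Their part in the member values was not tested.

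With Smarca5 shRNA added to CTCF overexpression, Krt14 scored 1442 and 1619, Krt5 246 and 304, Krt6a 3206 and 3246, Krt17 10225 and 9183, and Sfn 5416 and 4738. Both Krt17 libraries were above, and both Krt5 libraries below, the libraries with overexpression alone, and the other 3 genes overlapped them. The share of all genes separated in this way was not counted for this comparison, so no weight is given to the separation. The log2 fold changes against overexpression alone were 0.08, -0.19, 0.33, 0.32 and 0.10. With limma 0 of 5 passed (0.0773% of all genes), with an adjusted p of 1 for each. Only Krt17 was higher at an unadjusted limma p under 0.05, as were 0.711% of all genes. All 4 treated libraries stayed below both control columns for each member, as for 17.6% of all genes. Against the same control, the cultures with both treatments stood at -0.87, -1.07, -0.85, -0.55 and -0.29. With limma 0 of 5 passed (0.101% of all genes), and 3 of 5 were lower at an unadjusted p under 0.05, as were 2.44% of all genes. Krt5 was called with all 6 columns taken as separate samples (limma adjusted p = 0.0444), which counts the near-equal control columns as 2. Beside these values, the summed simple epithelial markers stood at 29110 with overexpression alone and 37280 with Smarca5 shRNA added. The fibroblast markers stood at 36919 and 39403, and the pluripotency markers at 13572 and 10564. The part of these markers in the member values was not tested.

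**Figure D3:**
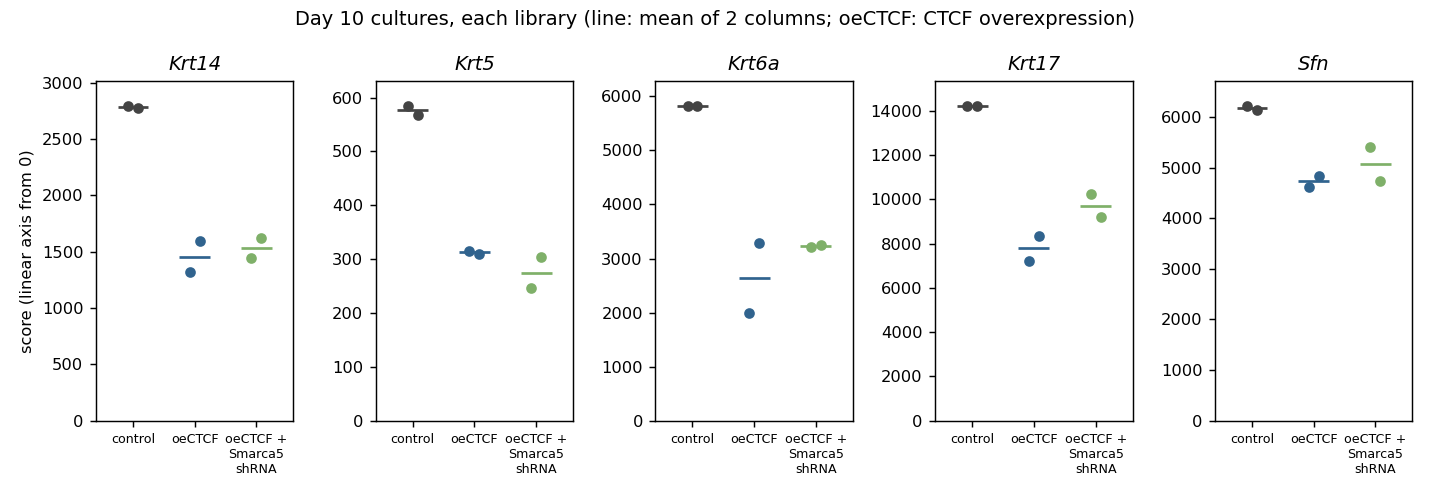
Scores of the 5 genes in each day 10 library (linear axes from 0; points: libraries, lines: the mean of 2 columns; control, CTCF overexpression, and CTCF overexpression with Smarca5 shRNA). All 4 treated libraries lie below both control columns in each panel, and the control columns of Krt6a and Krt17 have equal scores.

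None of the related genes at day 10 was called with limma. Of 19 other basal keratinocyte genes 18 had a negative log2 fold change with CTCF overexpression (median -0.55), as did 18 of 18 suprabasal and cornified genes (median -0.56), 10 of 12 desmosome genes (-0.47) and 14 of 14 simple epithelial genes (-0.63). Over all 12935 genes 6016 were negative and 6901 positive, with a median of 0.02. The integrin subunit gene Itgb4 went from 11873 to 6551 (-0.86), Perp stood at -0.33, the keratin gene Krt80 at -0.60, Sprr1a at -0.81, Krt13 at -1.01 and Krt8 at -0.46. The 12 p53 target genes had a median of 0.11 with 4 negative. Trp63, which was analysed in this table, stood at 244 against 332 (-0.44, limma adjusted p = 0.806).

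The sorted cells and the day 10 cultures share no samples, and their values can be set side by side. With Ctcf shRNA in sorted cells and with CTCF overexpression at day 10, Krt14 stood at 2.23 and -0.94, Krt6a at 0.81 and -1.18, Krt17 at 0.63 and -0.87, and Sfn at 0.47 and -0.38. A positive first and negative second value was found for 4 of 4 members, 12 of 17 other basal genes (70.6%), 8 of 8 suprabasal and cornified genes, 5 of 10 desmosome genes (50%), 8 of 14 simple epithelial genes (57.1%) and 3332 of 11667 genes in both tables (28.6%). The second values of all genes in this list carry no call.

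**Figure D4:**
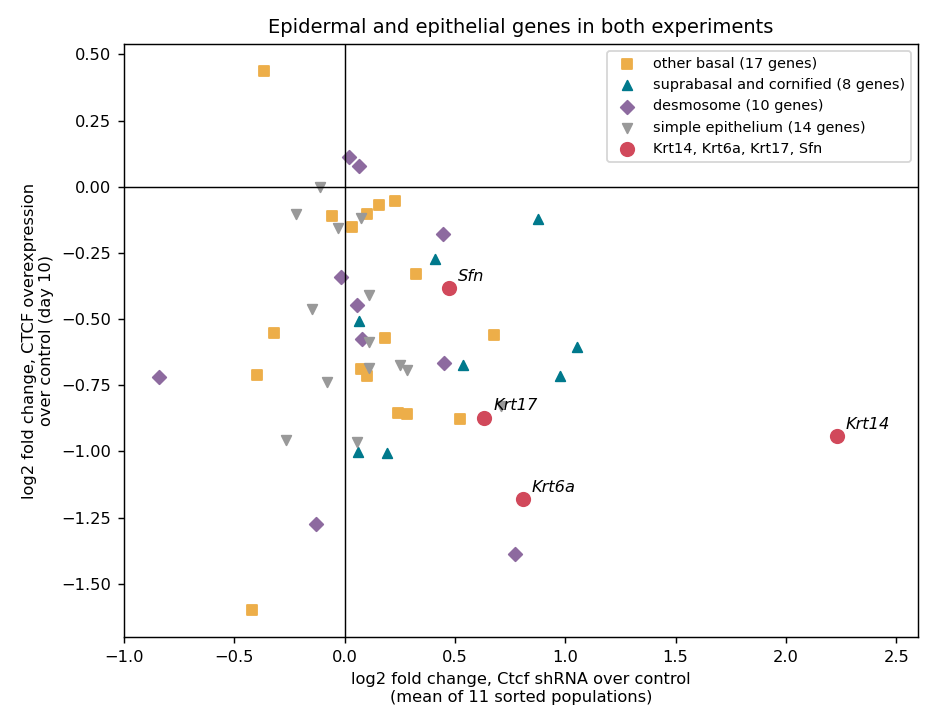
Log2 fold change with Ctcf shRNA (horizontal axis, mean of 11 sorted populations) against log2 fold change with CTCF overexpression at day 10 (vertical axis) for the members and 4 related gene lists; each point is a gene. The 4 members lie right of 0 and below 0, and Krt14 is the farthest to the right of the plotted genes, at 2.23.

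The authors' deposited comparison table for Ctcf shRNA at day 10 gives means of 2956 for Krt14 in the condition with less Ctcf and 1840 in the other, a log2 ratio of 0.68. In the same deposited table of the authors the ratios were 0.41 for Krt6a (6955 and 5221), 0.37 for Krt17 (8879 and 6892), 0.29 for Krt5 (794 and 651) and 0.07 for Sfn (3405 and 3240). The authors' deposited p was under 0.05 for 4 of the 5, all but Sfn (0.292), against 9.48% of 18529 rows with a mean of at least 10 that had such a p and were higher at less Ctcf. Ctcf itself stood at 1730 and 2197 in the authors' deposited table (-0.34). The authors' deposited table does not name its conditions, so the direction is stated relative to Ctcf, and the adjustment of its p is not given.

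In the authors' deposited table for CTCF overexpression, the log2 ratios of more over less Ctcf were -0.90 for Krt14, -0.65 for Krt5, -1.27 for Krt6a, -0.64 for Krt17 and -0.52 for Sfn. The authors' deposited p was under 0.05 for 5 of 5, against 2.52% of 17269 rows that had such a p and were higher at less Ctcf. Trp63 stood at 251 with less Ctcf and 142 with more in the authors' deposited table, with the authors' deposited p = 0.0478. In their deposited table for Ctcf shRNA it stood at 323 and 287, with the authors' deposited p = 0.496. The overexpression table may rest on the same day 10 libraries and is not counted as separate evidence.

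At the ends of the path, 1 library of MEFs (16593659 reads) and 1 of induced pluripotent stem cells (iPSCs, 9912018 reads) gave few reads for the keratins. Krt14 had 2 reads in MEFs and 4 in iPSCs, which is 0.121 and 0.404 CPM, counts scaled to a common library total. Krt5 had 1 and 0 reads and Krt6a 0 and 1, where a count of 0 allows up to 3 counts, or 0.181 CPM in MEFs and 0.303 in iPSCs, a limit of another kind than the intervals given next. Krt17 had 1 read in MEFs and 89 in iPSCs (8.98 CPM, exact 95% interval 7.21 to 11). Sfn had 68 reads in MEFs (4.1 CPM, 3.18 to 5.2) and 364 in iPSCs (36.7 CPM, 33.0 to 40.7). Krt17 and Sfn were thus detected in iPSCs above the MEF level, while the 3 other genes were at a few reads in either cell. The intervals cover counting error only, there is no replicate, and no test was made.

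Over the 11 control populations, group means of log2(score + 1) correlated between members from 0.408 (Krt14 and Krt17) to 0.853 (Krt6a and Krt17), with Krt14 and Sfn at 0.775 (Pearson's r, n = 11 group means that share day and sort). The profiles most like the mean of the 4 members were those of the tight junction genes Cldn6 (r = 0.855), Cgn (0.853) and F11r (0.809), of Pof1b (0.790) and of the simple keratin gene Krt18 (0.782). By single member, the most alike were Cldn6 for Krt6a (0.941), Ntn1 for Krt17 (0.986) and Pcnp for Sfn (0.717), the lowest of these 3 values. These correlations are a description of 11 group means and carry no test.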

How the data were processed

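Total RNA libraries (NEBNext Ultra kit, per the labels' protocols) of 56 samples were deposited, and the 4 shRNA samples of day 10 are not analysed here as single libraries. Per the submitters' processing notes the reads went through Trim Galore, FastQC and RSEM, with GRCm38 (mm10) for 54 samples and mm9 for 2, the MEF and iPSC libraries; versions are not given in the sources used here. The deposited scores are tag counts that the authors normalised to a shared distribution (medians 500 and 599 in the 2 tables) and rounded, which was read from the values. Raw sequencing depth is therefore unknown for these libraries. The MEF and iPSC table holds deposited counts without scaling. The 2 comparison tables deposited by the authors hold means, a log2 ratio and a p-value without a header.

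Because scores are no raw counts, log2(score + 1) of every gene in a table entered limma 3.58.1 (R 4.3.3; trended variance, each group a coefficient, 22 and 2 residual degrees of freedom), with Benjamini-Hochberg adjustment over all genes. The filter (10 or more in 2 or more libraries) removed 0 genes; 819 and 933 repeat rows were left out. The members and all gene lists were chosen with earlier results of these data known. Named genes are the members, Ctcf and Smarca5, up to 4 genes of highest mean level per list, and the genes of most similar profile (that of Krt14 alone is not reported here); Krt6b and Trp63 were added after their values were seen. The fit was tested on simulated data. Replicate numbers were not used as pairs: over 231 pairs of groups, deviations of same-numbered libraries correlated between -0.103 and 0.131. Alternatives were another pseudocount, filter and scaling, a replicate block, no trend, fits by day and leaving out each library.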

Additional observations from a re-analysis of the deposited data

Results flagged for a closer look

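For each of the 4 genes measured in sorted cells, the effect of Ctcf shRNA differed between the 11 populations by a limma F test of the differences themselves. The adjusted p was 9.08e-07 for Krt14, 1.82e-07 for Krt17, 1.49e-05 for Sfn and 7.27e-05 for Krt6a, and 56% of all genes passed the same test. The Krt14 effect ran from a log2 fold change of 0.38 at day 0 to 4.12 in day 3 SSEA1+ cells. The Krt17 effect ran from -1.45 at day 0 to 2.10 in day 3 double-negative cells. The range for Krt6a was -1.0 at day 0 to 2.07 in day 6 Thy1+ cells. That for Sfn was -0.29 in day 6 SSEA1+ cells to 0.89 in day 3 Thy1+ cells. The day 0 values of Krt17 and Krt6a rest on scores from 0 to 4. With a pseudocount of 8 the Krt17 value at day 0 was -0.37 and not called (limma adjusted p = 0.215).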

How the results depend on the processing

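Of 167 single results (member and comparison), the fit with a replicate block kept 166 on the same side of the threshold with the same sign, and the exception was a call for Krt6a in day 3 Thy1+ cells (adjusted p = 0.0481). With that block, 28 pairs were called under Ctcf shRNA, against 27 in the reported fit, 27 after quantile normalisation, 33 with a pseudocount of 8 and 31 in fits by day. Quantile normalisation kept 151 of 167 and reversed 3 Krt14 results. Against day 0 these were -0.50 in day 3 double-negative cells and -0.91 in day 9 Thy1+ cells. The third was -0.12 from day 6 to day 9 in Thy1+ cells. The day 9 Thy1+ value was called lower (limma adjusted p = 0.00845), as was Krt14 in day 6 Thy1+ cells (-0.79, 0.0220). Quantile normalisation moved the median of all genes by 0.0533 log2 units or less. A pseudocount of 8 kept 154 of 167, and fits by day 133 of 146. The filter of at least 100 in at least 2 libraries, no filter and no trend kept all 167. The fits by day were not run for the mean effect and for the difference between populations, which span all days. The cause of the changes was not tested.

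Leaving out 1 library at a time gave 26 to 31 calls under Ctcf shRNA, 34 to 35 against day 0, 10 to 11 for SSEA1+ against Thy1+ cells, 17 to 19 for double-negative cells and 22 to 24 between days. It kept 4 of 4 for the mean effect and for the difference between populations, and 0 at day 10 in each of the 3 comparisons. Of 764 single results so refitted, 718 kept side and sign, 37 lost a call, 2 gained one and 7 changed sign near 0. The last were 2 for Krt17 in day 12 GFP+ cells (range -0.019 to 0.135) and 2 for Sfn in day 9 double-negative cells (-0.061 to 0.044) under Ctcf shRNA, and, with Smarca5 shRNA added, 2 for Krt14 (-0.061 to 0.215) and 1 for Krt6a (-0.029 to 0.69). With all 6 day 10 columns as separate samples, 2 members were called with CTCF overexpression and 1 with both treatments. That fit counts the near-equal control columns as 2 samples. With a pseudocount of 0.1 in place of 1 CPM, 2 members in place of 1 were at least 8-fold higher in iPSCs than in MEFs. Low Krt14, Krt6a and Krt17 scores and 2 libraries per group limit the precision of single ratios.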
